A study of Mus musculus with 6 samples.

Results

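The genes followed here are 60 of the 24421 gene symbols measured by RNA sequencing of mouse prostates, from a genetic model of prostate cancer. They encode Wnt ligands, R-spondins, secreted Wnt antagonists, Wnt receptors and the core intracellular parts of the pathway. Members were matched by symbol: names beginning with Wnt, Fzd, Sfrp, Dkk or Rspo and a digit. A further 19 symbols, such as Axin2, Ctnnb1 and Lef1, were included. The members were chosen with earlier results of these data known. The 2 groups were intact (2 samples) and castrated (4 samples), and every sample carried the same genotype, PB-Cre4 with loxP-flanked alleles that Cre deletes. In that model Cre recombinase is expressed from a probasin promoter, which is active in prostate epithelium and responds to androgen. Cells in which Cre is not expressed, such as stroma and leukocytes, keep the flanked alleles. Neither the age of the mice nor the time since castration is in the labels. Whether each sample is a different animal is not stated in the labels. The p-values therefore reflect the spread among these 6 samples alone, and that spread may be technical.

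Wnt proteins are secreted lipid-modified ligands that bind Frizzled receptors together with the co-receptors Lrp5 and Lrp6. Binding stops a complex built on Axin and Apc from degrading beta-catenin, the product of Ctnnb1, which then enters the nucleus and works with Tcf and Lef factors. R-spondins act through Lgr receptors to remove the ligases Rnf43 and Znrf3, which otherwise clear Frizzled from the membrane. Secreted proteins of the Sfrp, Dkk and Wif1 kinds oppose the ligands or their co-receptors. In the prostate, Wnt signals pass between stroma and epithelium during bud growth, and androgen withdrawal makes the adult gland regress.

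The samples held from 43679297 to 59170793 gene-assigned reads. Expression is given as rescaled CPM, the deposited CPM (reads relative to all gene-assigned reads of the sample) divided by a factor per sample that aligns typical genes. Castrated sample 4 correlated least with the other castrated samples (mean r = 0.955, against 0.966 to 0.972 for the other 3). Markers of prostate luminal epithelium were expressed in every sample: Krt8 at 1536 to 2505, Krt18 at 836 to 1185, Epcam at 747 to 1134 and Hoxb13 at 59.3 to 233 rescaled CPM. Seminal vesicle markers were under 1 CPM in every sample, with Svs4 and Svs6 at 0 reads. The 4 neutrophil markers, all called higher, summed to 28.0 to 65.5 in intact and 195 to 339 in castrated samples. The 6 smooth muscle markers, of which 0 were called, summed to 193 to 208 and 257 to 461. Among them, Actg2 and Des overlapped between the groups. Their part in the values of Wnt genes was not tested. In tissue samples like these, fewer cells of a type and less RNA per cell cannot be told apart.

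Only 1 member, the R-spondin receptor gene Lgr4, passed the limma test, and it was higher in castrated samples. Among members that missed the threshold, the smallest p-values belonged to Axin2, Wnt7b, Sfrp5 and Wnt4, lower in castrated samples, and to Fzd7, Tcf7l1 and Fzd8, higher. Genes at 1 CPM or more in at least 2 samples were tested, which kept 42 of the 60 members. Lef1 and Sfrp5 passed only through the intact samples, where they are high, so a difference was built into their inclusion. limma with Benjamini-Hochberg adjustment over all 13898 tested genes called 1 of the 42 higher and 0 lower. Over all tested genes it called 1.97%, 0.698% higher and 1.27% lower. At an unadjusted p under 0.05 there were 16, 5 higher and 11 lower, which is 38.1%. Over all tested genes the share was 15.9%, 7.84% higher and 8.06% lower. The 2 groups did not overlap for 17 of the 42 (40.5%, against 26.6% of all tested genes). Among the 40 that passed through both groups, 14 had an unadjusted p under 0.05 and 15 did not overlap. The median log2 difference, castrated minus intact, was -0.16 over the 42 and 0.00 over all tested genes. On recovered reads, edgeR called 0 members and DESeq2 9, against 1.46% and 9.3% of all tested genes. edgeR gave 15 members (35.7%) an unadjusted p under 0.05, against 15.9% of all tested genes. As the members were chosen with earlier results of these data known, these shares are descriptive only.

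**Figure D1:**
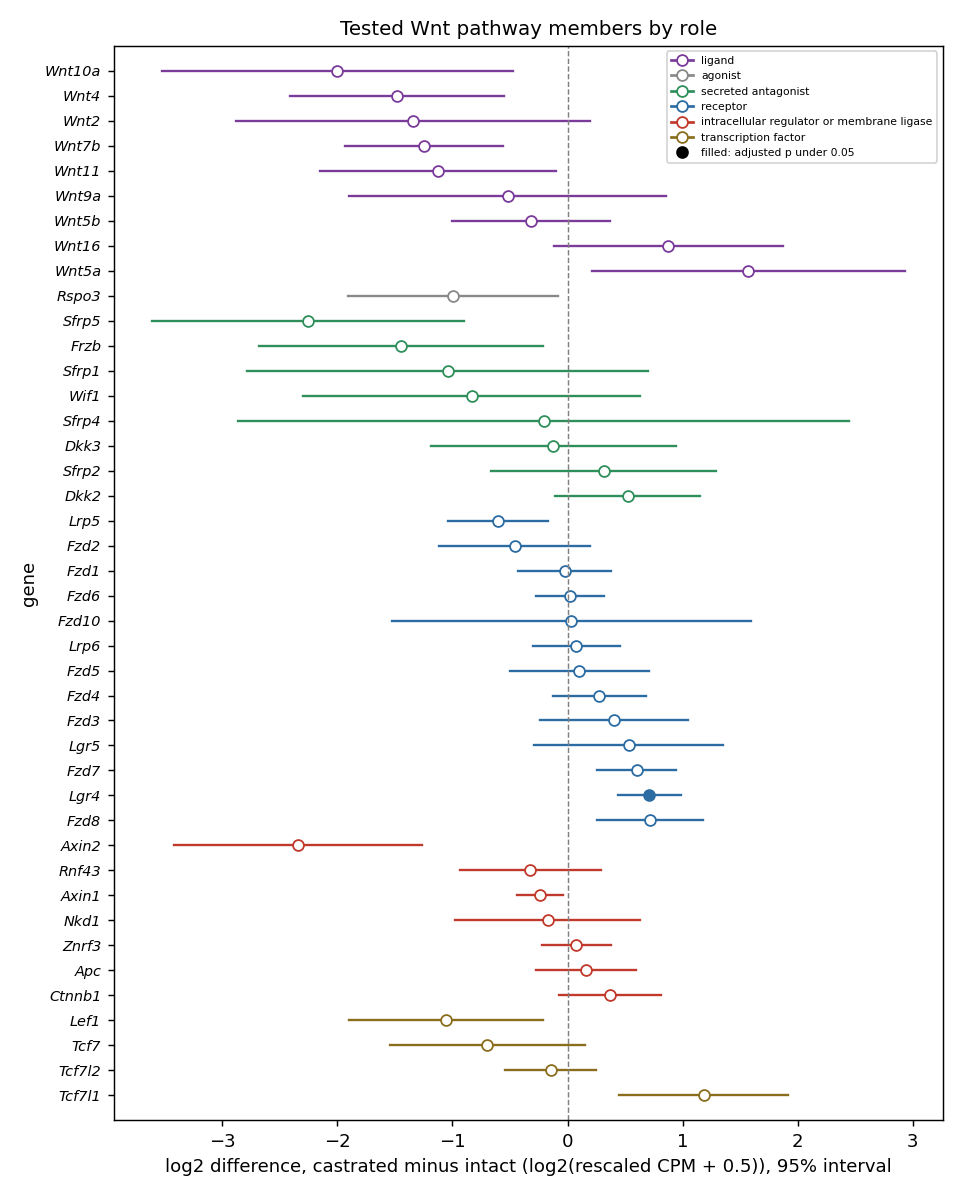
Log2 difference between castrated and intact samples for the 42 tested members (vertical axis), grouped by role and shown on the log2(rescaled CPM + 0.5) scale (horizontal axis). Points are limma estimates from 2 intact and 4 castrated samples, lines their 95% intervals. The filled point, Lgr4 at 0.71, is the only one with an adjusted p under 0.05. On this scale Axin2 at -2.34 lies lowest.

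The promoters of Lgr4 and Axin2 are shown because these members had the smallest p-values, with opposite directions. Each is the 250 bases before the RefSeq transcription start in GRCm38.p6, 5′ to 3′ on the plus strand. Axin2 is at chr11:108920099-108920348 and Lgr4 at chr2:109917397-109917646. Capitals mark the half-site of the androgen response element (AGAACA or its reverse complement), found once in Axin2 and not in Lgr4, and no TCF/LEF motif was found in either window.
Axin2: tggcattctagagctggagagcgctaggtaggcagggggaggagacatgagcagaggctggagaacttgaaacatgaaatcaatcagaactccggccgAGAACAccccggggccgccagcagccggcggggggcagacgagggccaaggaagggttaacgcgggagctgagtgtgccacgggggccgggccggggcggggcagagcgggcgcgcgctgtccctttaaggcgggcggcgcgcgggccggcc
Lgr4: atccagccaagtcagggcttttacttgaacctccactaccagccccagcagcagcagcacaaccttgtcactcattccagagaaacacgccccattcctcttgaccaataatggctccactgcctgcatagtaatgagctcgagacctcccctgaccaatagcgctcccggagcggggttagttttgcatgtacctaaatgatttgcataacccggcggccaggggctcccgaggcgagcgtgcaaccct
RefSeq windows of 300 bases, 50 of them after the start, were at hand for 39 of the 60 members. The TCF/LEF motif was searched on both strands as the letters CTTTGAA, the variant CTTTGAT, the variant CTTTGTA or the variant CTTTGTT, and lay in 7 of 49 member windows (14.3%), against 16.9% of all 32851 windows. The half-site, also searched on both strands, lay in 9 of 49 (18.4%, against 18.97% of all). The full element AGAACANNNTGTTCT, which contains the half-site on each strand, lay in 0 of 49 and in 3 of all windows. Such matches describe letters in a short window and show no binding.

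Among the ligands, the 2 most abundant, Wnt4 and Wnt7b, were lower in every castrated sample than in either intact sample, and Wnt5a was higher. Of 19 ligand genes, 9 were tested, and limma and edgeR called 0. DESeq2 called 3, Wnt4, Wnt7b and Wnt5a (adjusted p = 0.00518, 0.00224 and 0.0413), which is 33.3%, against 9.3% of all tested genes. At an unadjusted limma p under 0.05, 4 were lower (Wnt4, Wnt7b, Wnt10a and Wnt11) and 1 was higher (Wnt5a). Together these were 55.6% of the 9, against 15.9% of all tested genes. The median log2 difference of the 9 was -1.13.

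Wnt4, a ligand needed for the development of the female reproductive tract and the kidney (chromosome 4, 137277489 to 137299726), had levels of 167 (intact sample 1) and 220.2 rescaled CPM (intact sample 2). Castrated samples 1 to 4 had 41.7, 103, 53.3 and 95.6. The groups did not overlap, and castrated samples 1 and 3 were the lowest. The mean went from 193 ± 37.9 (SD, n = 2) to 73.4 ± 30.4 (n = 4), a log2 difference of -1.48 ± 0.39 (95% interval -2.41 to -0.55, limma adjusted p = 0.123). Here and below, ± after a log2 difference is its SE.

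Wnt7b, a ligand of epithelia that signals through beta-catenin (chromosome 15, 85535437 to 85582473), stood at 102.2 and 102.4 in the intact samples, and castrated samples 1 to 4 had 31.7, 55.2, 32.7 and 58.7. As for Wnt4, castrated samples 1 and 3 lay below 2 and 4, and the groups of Wnt7b did not overlap. For Wnt7b the log2 difference was -1.25 ± 0.29 (limma adjusted p = 0.0917), and it ranged from -1.40 to -1.11 with 1 sample left out. The antisense gene AU022754 overlaps 6.61% of Wnt7b exon sequence. No label or header says if strand was used in counting.

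Wnt10a, which signals in skin and tooth epithelium (chromosome 1, 74791516 to 74804179), stood at 5.81 and 7.31 in intact samples, against 0.856, 2.69, 0.211 and 2.57 in castrated samples 1 to 4. Again castrated samples 1 and 3 lay below 2 and 4. Castrated minus intact, the log2 difference was -2.001 ± 0.637, a 4.00-fold lower level on the log2(value + 0.5) scale (limma adjusted p = 0.185). Its neighbour Wnt6, 6194 bases away, was too weak to be tested. It had 14 and 69 reads in the intact and 15, 18, 8 and 17 in the castrated samples, or 0.328 and 1.21 against 0.141 to 0.323 rescaled CPM.

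Wnt11 was at 5.10 and 3.29 in intact and at 1.48, 0.790, 1.62 and 3.16 in castrated samples. The groups were separated only by the gap between intact sample 2 and castrated sample 4. The log2 difference was -1.13 ± 0.43 (limma adjusted p = 0.264).

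Wnt5a, the classical ligand of beta-catenin-independent signalling (chromosome 14, 28504750 to 28527448), stood at 3.07 and 8.18 in intact samples, against 9.60, 23.8, 10.004 and 28.5 in castrated samples 1 to 4. All 4 castrated values lay above both intact ones, by little for castrated samples 1 and 3. Castrated minus intact, the log2 difference was 1.57 ± 0.57 (95% interval 0.21 to 2.93, limma adjusted p = 0.239). It was 0.93 without intact sample 1 and 2.21 without intact sample 2. The related Wnt5b was at 7.58 and 8.22 against 4.93, 8.63, 4.54 and 7.70, so its groups overlapped (log2 difference -0.32 ± 0.29). Antisense or overlapping transcripts share 4.58% of Wnt5a and 8.80% of Wnt11 exon sequence.

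**Figure D2:**
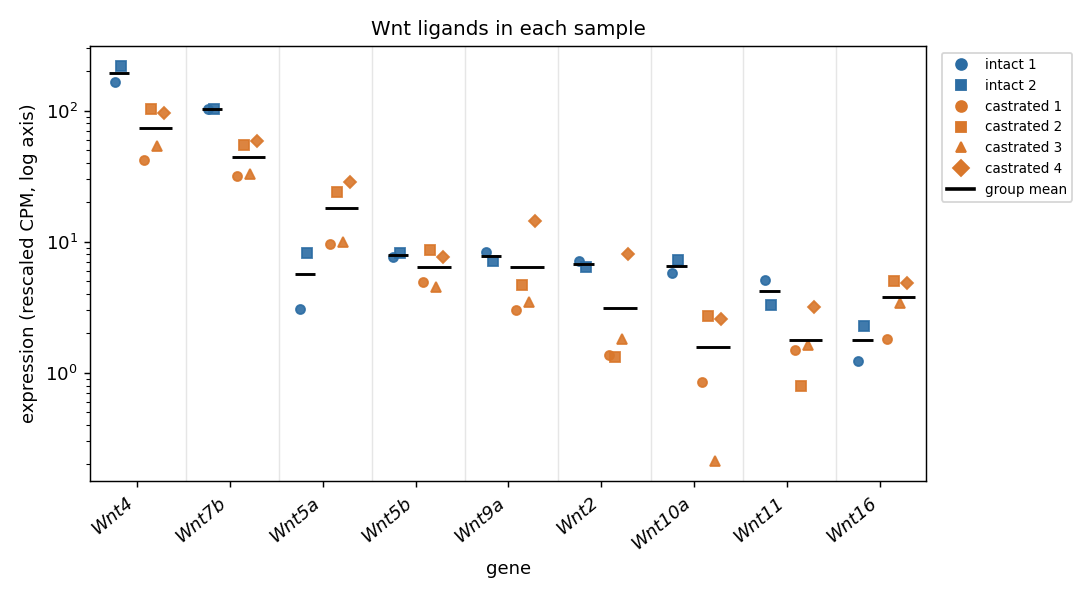
Rescaled CPM (log axis) of the 9 tested Wnt ligands in each sample. Blue symbols are the 2 intact and orange symbols the 4 castrated samples, and black bars are group means. Wnt4 and Wnt7b lie lower and Wnt5a higher in all 4 castrated samples than in both intact samples. Castrated samples 2 and 4 lie above 1 and 3 for 7 of the 9 genes.

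Wnt2, Wnt9a and Wnt16 had overlapping groups, and Wnt16 was at 1.24 and 2.29 in intact and at 1.81, 5.01, 3.43 and 4.88 in castrated samples. Wnt2, a stromal ligand in many organs, was at 7.14 and 6.38 in intact samples and at 1.37, 1.31 and 1.81 in castrated samples 1 to 3, but at 8.04 in castrated sample 4. Wnt9a was likewise at 3.02, 4.67 and 3.45 in those 3 and at 14.5 in castrated sample 4, against 8.31 and 7.15 in the intact samples. For both, castrated sample 4 was the highest of all 6 samples. With all samples the log2 difference of Wnt2 was -1.34 (limma adjusted p = 0.377). Without castrated sample 4, Wnt2 was 3.65-fold lower in castrated samples and passed the threshold (limma adjusted p = 0.00894). Wnt2 did not pass with castrated sample 1, 2 or 3 left out (limma adjusted p = 0.515 to 0.595).

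Summed per exon length, the ligand pool was smaller in every castrated than in every intact sample. The 19 ligands together reached 73.6 and 87.6 rescaled CPM per kilobase of exon in intact samples, against 22.4, 46.8, 25.6 and 52.5 in the castrated ones. Wnt4 and Wnt7b together made up 82.3% and 83.8% of that sum in intact samples and 73.1%, 76.5%, 75.6% and 66.3% in castrated samples. Wnt5a and Wnt5b together made up 4.42% and 4.73% in intact and from 11.6% to 13.7% in castrated samples. Wnt5b alone made up a mean of 3.71% in intact and 6.85% in castrated samples. Its own level did not rise (means of 2.98 and 2.43 rescaled CPM per kilobase), and its share was of a smaller sum. These shares did not overlap between the groups, and no test was made of them.

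**Figure D3:**
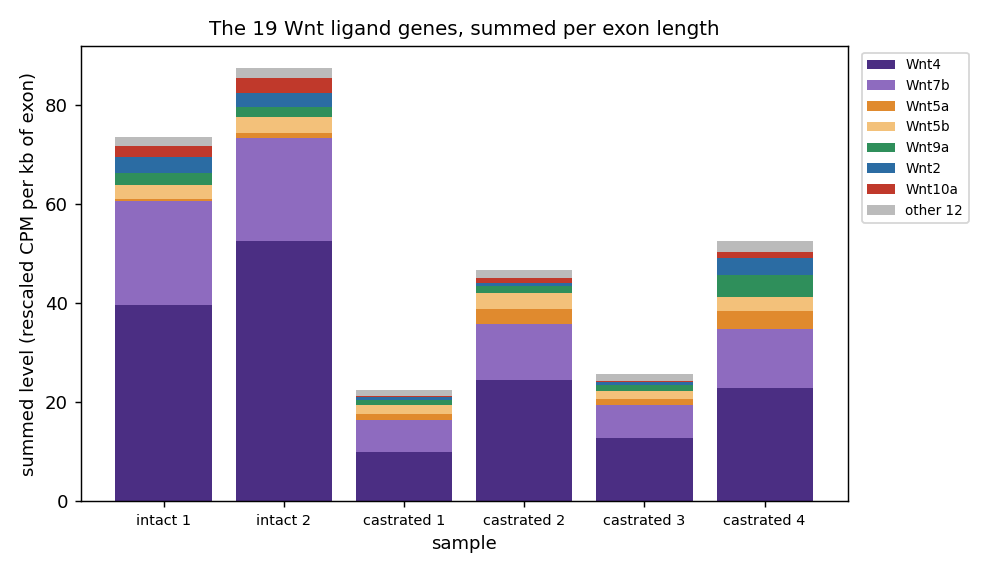
Level of the 19 Wnt ligand genes in each sample, as rescaled CPM per kilobase of exon stacked by gene; each bar is 1 sample. The bars reach 73.6 and 87.6 in intact samples and 22.4 to 52.5 in castrated samples, and Wnt4 and Wnt7b fill most of each bar.

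Within the castrated group, several members divided the samples in the same way, a pattern chosen after the values were seen and given without a test. Castrated samples 2 and 4 both lay above 1 and 3 for 20 of the 42 tested members (47.6%, against 23% of all tested genes), and both lay below for 6 (14.3%, against 25.2%). The 20 included 7 of the 9 ligands (Wnt4, Wnt5a, Wnt5b, Wnt7b, Wnt9a, Wnt10a and Wnt16), Axin2, Lef1 and Tcf7. Of 7 basal epithelial markers, 6 had the same order (Krt5, Krt14, Krt15, Trp63, Lamb3 and Col17a1). The basal markers summed to 3720 and 4151 in intact samples and to 811, 3764, 1027 and 3004 in castrated samples 1 to 4, and 0 of the 7 were at 0 reads. The luminal markers Krt8, Krt18, Cd24a, Epcam, Hoxb13 and Cldn3 had the opposite order. The part of these cell populations in the Wnt values was not tested.

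Of the R-spondins, which amplify Wnt signals, only Rspo3 was tested. Intact samples had 2.90 and 5.14 rescaled CPM of Rspo3, against 2.95, 1.49, 1.71 and 1.03 in castrated samples. Castrated sample 1 lay within the intact range, and the log2 difference was -0.997 ± 0.381 (limma adjusted p = 0.267). Antisense Gm48159 overlaps 13.1% of Rspo3 exon sequence. Rspo1 had reads in every sample but stayed at or under 0.953 rescaled CPM, Rspo2 had reads in 3 samples, and Rspo4 had 1 read in all.

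Among the secreted antagonists, castrated sample 4 held the highest castrated value in Sfrp1, Sfrp4, Frzb, Dkk2 and Dkk3. Of 11 antagonist genes 8 were tested, and limma and edgeR called 0. DESeq2 called 1, Sfrp5 (12.5%, against 9.3% of all tested genes). Frzb and Sfrp5 were lower at an unadjusted limma p under 0.05 (25%, against 15.9% of all tested genes). Sfrp5 passed the filter only through the intact samples, so a difference was built into its inclusion. The median log2 difference of the 8 was -0.52.

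Sfrp1, a secreted Frizzled-related protein of stroma (chromosome 8, 23411502 to 23449632), stood at 107 and 94.8 in intact samples. Castrated samples 1 to 3 had 29.2, 23.1 and 50.6, against 162 in castrated sample 4, above both intact samples. With all samples the log2 difference was -1.04 ± 0.73 (limma adjusted p = 0.568). Without castrated sample 4, Sfrp1 was 3.07-fold lower in castrated samples (limma adjusted p = 0.0364). Sfrp1 did not pass the threshold with castrated sample 1, 2 or 3 left out (limma adjusted p = 0.696 to 0.787).

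Sfrp4, another member of that family (chromosome 13, 19623104 to 19632994), had the same outline with a larger step. Intact samples had 24.5 and 28.4, with 8.56, 19.3 and 9.93 in castrated samples 1 to 3 and 155 in castrated sample 4. The log2 difference was -0.21 (95% interval -2.86 to 2.45). It was -1.13 without castrated sample 4, but 0.88 in edgeR and 0.87 in DESeq2, so the data give Sfrp4 no direction.

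Frzb, also known for binding Wnt ligands (chromosome 2, 80411970 to 80447625), was at 18.1 and 22.9 in intact and at 8.69, 3.52, 5.45 and 15.3 in castrated samples. Here castrated sample 4 stayed below both intact samples. Castrated minus intact, the log2 difference was -1.44 ± 0.52 (limma adjusted p = 0.232), and without castrated sample 4 the level was 3.46-fold lower (limma adjusted p = 0.0366). Sfrp5 was at 1.31 and 6.42 in intact and at 0.551, 0.0898, 0.0879 and 0.323 in castrated samples. The 2 intact samples were far apart, both above every castrated sample, and the fitted difference was -2.26 ± 0.57 on the log2(value + 0.5) scale (limma adjusted p = 0.111). On recovered reads edgeR and DESeq2 each gave -3.88 for Sfrp5 (adjusted p = 0.0991 and 0.00177). These fits used the same filter, which Sfrp5 passed only through the intact samples.

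Dkk3, a divergent member of the Dickkopf family, was at 13.2 and 26.0 in intact samples, 14.6, 13.6 and 12.7 in castrated samples 1 to 3 and 33.0 in castrated sample 4. Its groups overlapped. Dkk2, which binds Lrp6, was at 13.9 and 17.3 in intact and at 21.0, 18.2, 19.6 and 33.8 in castrated samples. Every castrated value of Dkk2 lay above both intact ones, with a log2 difference of 0.52 ± 0.26 (limma adjusted p = 0.403). Wif1 ranged from 1.85 to 9.44 in castrated samples, against 6.53 and 14.5 in intact samples. Sfrp2 was at 2.34 and 5.68 against 4.45, 6.32, 2.90 and 5.94, also overlapping. Antisense Gm26771 overlaps 16.1% of Sfrp2 exon sequence.

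Markers of some cell types, but not of others, were also high in castrated sample 4. The 7 fibroblast markers summed to 1702 and 1839 in intact samples, to 1013, 806 and 1365 in castrated samples 1 to 3 and to 1917 in castrated sample 4. The 6 endothelial markers summed to 125 and 116, to 71.2, 71.9 and 72.8, and to 129. None of the markers in both lists was at 0 reads in all samples. Castrated sample 4 was the highest castrated sample for 4 of the 7 and 6 of the 6, against 35.4% of all tested genes. It was also the highest for 5 of 5 macrophage and 4 of 5 T and NK cell markers. It was the highest for 0 of the 6 smooth muscle, 4 neutrophil, 4 adipocyte, 4 Schwann and 5 B and plasma cell markers. Among epithelial markers it was the highest castrated sample for 4 of the 7 basal and 0 of the 7 luminal ones. The part of these cells in the antagonist values was not tested.

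**Figure D4:**
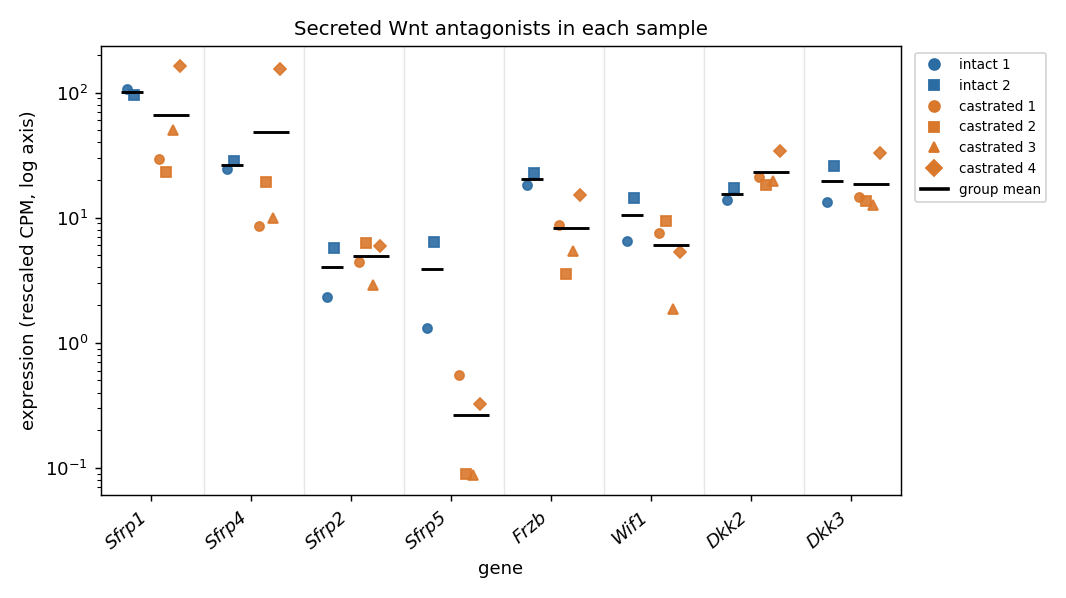
Rescaled CPM (log axis) of the 8 tested secreted antagonists in each sample. Blue symbols are the 2 intact and orange symbols the 4 castrated samples, and black bars are group means. Castrated sample 4 (diamond) stands above the other 3 castrated samples for Sfrp1 (162), Sfrp4 (155), Frzb (15.3), Dkk2 (33.8) and Dkk3 (33.0).

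Among receptors, Lgr4 rose in castrated samples, and Fzd7 and Fzd8 lay higher and Lrp5 lower without passing the limma threshold. Of 15 receptor genes 13 were tested, and limma called 1 higher and 0 lower, edgeR 0, and DESeq2 3. DESeq2 called Fzd7 and Fzd8 (adjusted p = 0.0103 and 0.0131) beside Lgr4, 23.1% of the 13, against 9.3% of all tested genes. Over all tested genes limma called 1.97%. In limma 10 of the 13 had a positive log2 difference (median 0.10). Lgr4 was also the most abundant receptor per exon length, at a mean of 71.4 rescaled CPM per kilobase over all samples, followed by Fzd6 at 18.9 and Fzd1 at 18.5.

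Lgr4, a receptor for R-spondins (chromosome 2, 109917647 to 110014257), stood at 301 and 287 rescaled CPM in intact samples, against 503, 484, 424 and 520.2 in castrated samples 1 to 4. The lowest castrated sample lay well above the higher intact sample. The mean went from 294 ± 10.1 (SD, n = 2) to 483 ± 41.8 (n = 4), a 1.64-fold rise with a log2 difference of 0.71 ± 0.11 (95% interval 0.44 to 0.99, limma adjusted p = 0.0395). The size moved little with 1 sample left out (0.67 to 0.77). The call held only without castrated sample 4 (adjusted p = 0.0195). It was lost without intact sample 1 or 2 (adjusted p = 0.248 and 0.262) or castrated sample 1, 2 or 3 (adjusted p = 0.0921, 0.119 and 0.0666), and narrowly in edgeR (adjusted p = 0.0509), while DESeq2 gave an adjusted p of 9.57e-07.

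Fzd7, a Frizzled receptor of stem and progenitor cells in several tissues (chromosome 1, 59482424 to 59486955), was at 48.6 and 37.1 in intact and at 60.8, 64.6, 60.1 and 73.9 in castrated samples. The groups were apart and the log2 difference was 0.60 ± 0.14 (limma adjusted p = 0.103). Fzd8 (chromosome 18, 9212163 to 9218136) was at 12.8 and 13.4 in intact samples, at 24.2, 23.0 and 24.8 in castrated samples 1 to 3 and at 16.3 in castrated sample 4. The log2 difference of Fzd8 was 0.71 ± 0.19 (limma adjusted p = 0.131), and without castrated sample 4 it was 0.85 and passed the threshold (adjusted p = 0.0124). Both receptors thus lay higher in all 4 castrated samples.

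Of the co-receptor genes, Lrp5 lay lower in castrated samples and Lrp6 overlapped between the groups. Lrp5 (chromosome 19, 3584828 to 3686564) was at 121 and 134 in intact and at 66.2, 79.5, 88.8 and 105 in castrated samples, with no overlap. Its log2 difference was -0.60 ± 0.18 (limma adjusted p = 0.168), and without castrated sample 4 it passed the threshold at 1.64-fold lower (adjusted p = 0.0371). Lrp6 was at 132 and 124 in intact and at 115, 119.7, 158 and 154 in castrated samples, with overlapping groups and a log2 difference of 0.08 ± 0.16. Whether the Lrp5 and Lrp6 differences themselves differ was not tested.

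Fzd1 and Fzd6 were near level between the groups. Fzd6 was at 87.6 and 92.4 in intact and at 81.2, 92.4, 87.1 and 106 in castrated samples, and its log2 difference of 0.02 had an interval of -0.27 to 0.31. Fzd1 was at 78.0 and 77.6 in intact samples and at 67.6, 71.5, 70.7 and 100.2 in castrated samples, with an interval of -0.43 to 0.38. The stem cell receptor Lgr5 was weak, at 2.04 and 1.82 in intact and at 2.42, 3.45, 1.95 and 4.88 in castrated samples (log2 difference 0.53 ± 0.34). Fzd2, Fzd3, Fzd4, Fzd5 and Fzd10 had overlapping groups. Antisense transcripts overlap 17.8% of Fzd5 and 3.15% of Fzd6 exon sequence. Summed per exon length, the 15 receptors reached 137 and 137 rescaled CPM per kilobase in intact and from 163 to 191 in castrated samples, and Lgr4 alone made up 35.6% to 37.3% and 44.2% to 51.2% of these sums.

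Axin2, a negative regulator that is widely used as a readout of beta-catenin activity, had the lowest limma log2 difference of all tested members, while Sfrp5 was lower in edgeR and DESeq2. It lies on chromosome 11 (108920349 to 108950783), with the promoter printed above. Axin2 was at 15.3 and 29.9 rescaled CPM in intact and at 2.45, 4.43, 2.65 and 7.01 in castrated samples 1 to 4. Every castrated sample was below every intact sample, with 1 and 3 the lowest, as for 7 of the 9 tested ligands. The mean went from 22.6 ± 10.3 (n = 2) to 4.14 ± 2.11 (n = 4), a log2 difference of -2.34 ± 0.45 (95% interval -3.42 to -1.27, limma adjusted p = 0.0607). DESeq2 called it (adjusted p = 6.14e-05) and edgeR did not (adjusted p = 0.0741). With 1 sample left out the log2 difference ranged from -2.82 to -1.88, and limma called it only without castrated sample 4 (adjusted p = 0.0134). Antisense Gm11670 overlaps 3.80% of Axin2 exon sequence.

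The other 6 genes whose transcription is known to answer to Wnt signalling had mixed values, and limma called 0 of them. Lef1, a nuclear partner of beta-catenin, was at 1.73 and 1.33 in intact and at 0.228, 0.915, 0.299 and 0.581 in castrated samples (log2 difference -1.06 ± 0.35, limma adjusted p = 0.201). Lef1 passed the filter only through the intact samples, so a difference was built into its inclusion. Antisense Gm43352 overlaps 13.7% of Lef1 exon sequence. The ligase gene Znrf3 was at 15.9 and 18.5 in intact and at 16.7, 18.9, 18.4 and 18.5 in castrated samples, an interval of -0.23 to 0.38 on the log2 scale.

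Its relative Rnf43 was at 38.9 and 58.4 in intact and at 45.1, 35.7, 46.4 and 27.7 in castrated samples, with overlapping groups. Nkd1, a feedback inhibitor, was at 1.52 and 2.68 against 2.17, 1.47, 1.14 and 2.45, also overlapping. Notum, an enzyme that removes the lipid from Wnt proteins, was not tested. It had 16 and 88 reads in intact samples and 6, 20, 15 and 10 in castrated samples, or 0.375 and 1.54 against 0.114 to 0.359 rescaled CPM. Antisense transcripts overlap 38.1% of Notum exon sequence.

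Axin1, Ctnnb1 and Apc had log2 differences between -0.24 and 0.37. Axin1, the constitutive scaffold, was at 99.2 and 102.3 in intact and at 81.7, 83.5, 89.5 and 86.7 in castrated samples (log2 difference -0.24 ± 0.08, limma adjusted p = 0.225). The groups were apart although the difference was small. Ctnnb1, beta-catenin itself, was at 1493 and 1711 in intact and at 1840, 2128, 1860 and 2496 in castrated samples, a log2 difference of 0.37 ± 0.19 (limma adjusted p = 0.401). The groups of Ctnnb1 did not overlap either. Antisense Ulk4 overlaps 14.6% of Ctnnb1 exon sequence. Apc was at 86.9 and 106 against 87.0, 105, 108 and 135, with overlapping groups.

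Of the 4 nuclear factors, Tcf7l1 lay higher and Tcf7 and Tcf7l2 overlapped between the groups. Tcf7l1, which acts mostly as a repressor (chromosome 6, 72626378 to 72789254), was at 7.26 and 8.53 in intact and at 23.4, 18.8, 23.5 and 11.3 in castrated samples 1 to 4. All castrated samples lay above the intact ones, and castrated samples 2 and 4 lay below 1 and 3, the reverse of the order in Axin2. The log2 difference was 1.18 ± 0.31 (95% interval 0.45 to 1.92, limma adjusted p = 0.12, DESeq2 adjusted p = 0.00301). Without castrated sample 4 it was 1.41 and passed the threshold (adjusted p = 0.00864). Antisense Gm15401 overlaps 4.56% of Tcf7l1 exon sequence.

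Tcf7 was at 10.1 and 6.09 in intact and at 3.69, 5.995, 3.11 and 6.65 in castrated samples (log2 difference -0.70 ± 0.36). Castrated sample 4 alone exceeded intact sample 2. Tcf7l2 was at 27.8 and 27.9 in intact and at 31.7, 24.04, 24.4 and 21.4 in castrated samples. As a share of the 4 factors per exon length, Tcf7l1 went from 20.4% and 27.8% in intact to between 36.3% and 60.0% in castrated samples, with no overlap and no test.

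**Figure D5:**
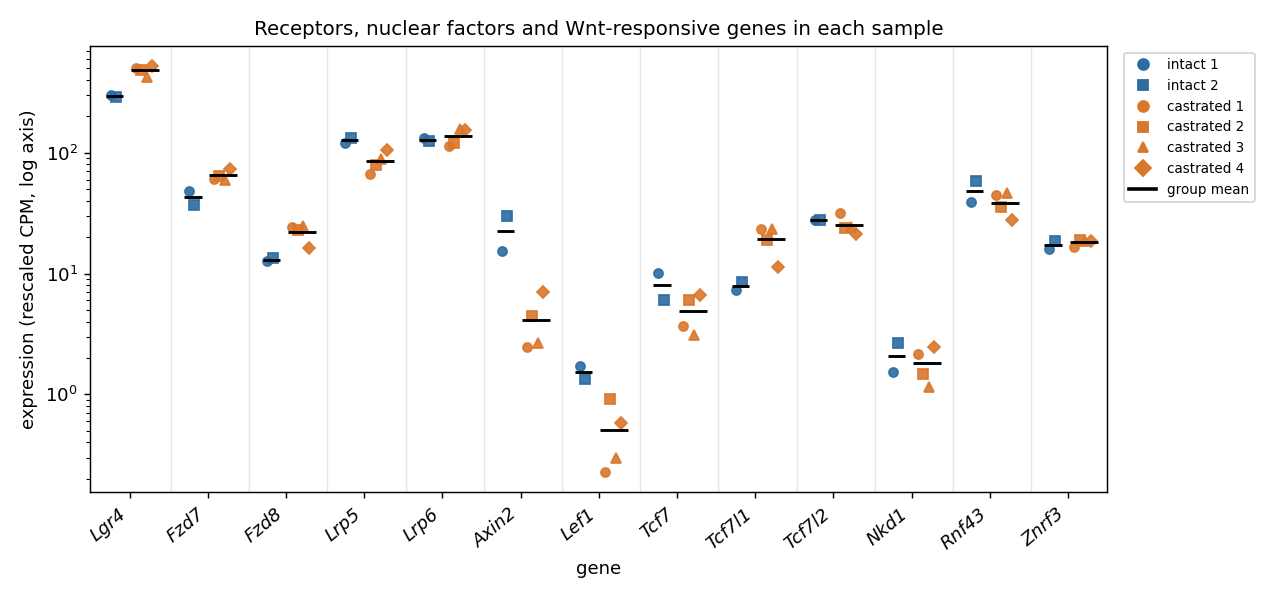
Rescaled CPM (log axis) of 5 receptors, 4 nuclear factors and 4 genes that answer to Wnt signalling, in each sample. Blue symbols are the 2 intact and orange symbols the 4 castrated samples, and black bars are group means. Lgr4, Fzd7, Fzd8 and Tcf7l1 lie higher and Lrp5, Axin2 and Lef1 lower in all 4 castrated samples, while Znrf3 and Tcf7l2 overlap. Lef1 passed the filter only through the intact samples.

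Taking castrated sample 4 out raised the number of called members from 1 to 9 of 42 (21.4%). The 9 were Lgr4, Fzd8 and Tcf7l1, higher in castrated samples, and Axin2, Wnt7b, Wnt2, Sfrp1, Frzb and Lrp5, lower. Over all tested genes that fit called 7.63%, 3.38% higher and 4.25% lower. With any other single sample left out, 0 members were called. Across the 4 castrated samples, sample 4 was the highest for 23 of the 42 members (54.8%, against 35.4% of all tested genes) and the lowest for 7 (16.7%, against 38.6% of all tested genes).

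Other genes of the pathway were taken from a list of 68 symbols, of which 67 were in the files and 57 were tested. They cover secretion, co-receptors, the destruction complex, nuclear cofactors, planar polarity and common beta-catenin targets. limma called 0 of the 57, edgeR 0 and DESeq2 4 (7.02%, against 9.3% of all tested genes). At an unadjusted p under 0.05 there were 7 (12.3%, against 15.9% of all tested genes), 3 higher and 4 lower. The median log2 difference was -0.02.

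Ror2, a receptor for Wnt5a, was at 27.0 and 35.3 rescaled CPM in intact and at 6.29, 5.55, 4.78 and 14.8 in castrated samples. Its groups lay far apart, with a log2 difference of -2.05 (limma adjusted p = 0.0761), opposite in sign to that of Wnt5a. Gpc4, a cell surface proteoglycan, was at 47.5 and 45.3 against 74.1, 61.0, 66.9 and 64.4 (log2 difference 0.51, limma adjusted p = 0.0731). Dvl1, which relays the Frizzled signal, was at 124 and 118 against 95.1, 91.9, 91.8 and 92.7 (log2 difference -0.38, limma adjusted p = 0.0724). The castrated values of Dvl1 were close to each other and all below the intact ones.

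Gpc3 was at 0.164 and 2.64 in intact and at 4.87, 3.93, 6.82 and 5.09 in castrated samples (log2 difference 1.95, limma adjusted p = 0.169). That difference was 0.83 without intact sample 1 and 3.08 without intact sample 2. Among the usual targets, the transcription factor gene Sox9 was at 189 and 135 against 109.6, 93.7, 113 and 87.3. The cyclin gene Ccnd1 was at 387 and 277 against 198, 211, 185 and 274. With castrated sample 4 left out, limma called 4 of the 57 (7.02%, against 7.63% of all tested genes), a share near that of all genes. They were Ror2, Gpc4, Dvl1 and Ccnd1 (limma adjusted p = 0.00348, 0.0428, 0.0414 and 0.0447). Sox9 and Ccnd1 were lower in each castrated sample than in either intact sample, with log2 differences of -0.67 and -0.61 (limma adjusted p = 0.118 and 0.195). Antisense LTO1 overlaps 23.4% of Ccnd1 exon sequence.

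The 18 members not tested were 10 ligands, 3 R-spondins, 3 antagonists and 2 receptors. Wnt3a, Wnt8a and Dkk4 had 0 reads in every sample, which allows up to 0.0507 to 0.0687 CPM depending on the sample, for counting error only. Notum, Rspo1, Wnt6, Wnt7a and Wnt10b had reads in all 6 samples. The other 10 (Dkk1, Fzd9, Lgr6, Rspo2, Rspo4, Wnt1, Wnt2b, Wnt3, Wnt8b and Wnt9b) had reads in some samples only. Wnt1 and Wnt3, classical ligands of the beta-catenin pathway, had 8 and 1 reads over all 6 samples.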

How the data were processed

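RNA sequencing of 6 mouse prostate samples was used, 2 intact and 4 castrated, grouped by the castration status in the labels. The authors deposited 1 table of CPM per sample, with TopHat2, HTSeq, edgeR and the build mm10 named without versions, per the submitters' processing notes. Every value was a whole multiple of the value of 1 read in its sample (100% of values, tolerance 1e-06), so whole reads were recovered. CPM was divided by median-of-ratios size factors (0.978 to 1.05). Genes reaching 1 CPM in 2 or more samples were fitted with limma 3.58.1 in R 4.3.3 on log2(rescaled CPM + 0.5), with a mean-variance trend. P-values were two-sided and Benjamini-Hochberg adjusted over all 13898 genes, with a threshold of 0.05. Fold changes on this scale understate changes of weak genes. Alternatives were other pseudocounts, filters and scalings, no trend, edgeR 4.0.16 and DESeq2 1.42.0 on recovered reads, a replicate block, and each sample left out. The steps were tested on simulated data. The members and lists were chosen with earlier results of these data known. Members named with values were those called, those with an unadjusted p under 0.05, the 3 most abundant per role and exon length, and 7 Wnt-responsive genes. Of other pathway genes, the 6 smallest p-values were named. Wnt2, Wnt9a, Wnt16, Sfrp2, Dkk2, Wif1 and Lrp6 were added after their values were seen. Wnt6, the neighbour of Wnt10a, was also named outside these rules. Positions and exon lengths are from GENCODE M21 (GRCm38, which mm10 names) and promoter sequences from RefSeq (GRCm38.p6). The deleted gene and 1 luminal marker are not reported here.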

Additional observations from a re-analysis of the deposited data

Results flagged for a closer look

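In each of the 42 tested members, the highest and lowest of the 4 castrated samples were compared with the range of the group. In 5 members the gap to the nearest sample took up more of the range than Dixon's 95% critical value for 4 samples, and in each of the 5 the sample was castrated sample 4, at the high end. For normally distributed values, chance gives about 1 such gap in 20 groups. The gaps were taken on rescaled CPM without logs, and the share among all tested genes is not given. An excess among the members therefore cannot be read from this count. The values in castrated sample 4 were 155 rescaled CPM for Sfrp4 (nearest 19.3), 33.0 for Dkk3 (nearest 14.6), 100.2 for Fzd1 (nearest 71.5), 8.04 for Wnt2 (nearest 1.81) and 14.5 for Wnt9a (nearest 4.67).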

How the results depend on the processing

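The number of genes called was 274, and 170 with no filter, 1293 in DESeq2, 417 with the replicate block and from 1 to 1052 with 1 sample left out. The number of Wnt members called was 1. It was 0 with no filter, without a mean-variance trend and in edgeR, 9 in DESeq2, 7 with the replicate block, and from 0 to 9 with 1 sample left out. Of other pathway genes 0 were called, and 4 in DESeq2, 1 with the replicate block, and from 0 to 4 with 1 sample left out. Other pseudocounts, the filter on mean level, CPM as deposited and TMM scaling left the 3 counts within 1.5 times of these. With 1 intact sample left out, the lone intact sample is assumed to vary like the castrated ones.

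Same-numbered samples share only a number in the titles. Their deviations from the group means correlated at 0.08 for pair 1 and 0.23 for pair 2, and 2 pairs are too few to show a pairing.

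Of 572 re-estimates of the 36 named and tested genes, 519 kept their direction and side of the threshold, 29 passed it newly, 8 lost it (all Lgr4) and 16 changed sign, and the cause was not tested. The sign changes were all in genes that did not pass the threshold. Apc was at -0.00398 and Fzd6 at -0.0547 with the replicate block. Fzd1 was at 0.0225 on CPM as deposited, and Sfrp4 at 0.878 in edgeR and 0.872 in DESeq2. With 1 sample left out, the log2 difference ranged from -0.601 to 0.351 for Dkk3, from -0.156 to 0.0325 for Fzd1, from -0.0540 to 0.0744 for Fzd6, from -0.501 to 0.152 for Nkd1, from -1.125 to 0.243 for Sfrp4 and from -0.0333 to 0.178 for Znrf3. The 18 members that were not tested stayed under the filter on low values.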
